A study of Homo sapiens with 6 samples.

Results

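The genes described here are 56 genes of lysine acetylation other than KAT8: acetyltransferases, the partner subunits of their complexes, the zinc-dependent deacetylases (HDACs), the sirtuins and readers of acetylated lysine. They were chosen by name from a fixed list of these families and not by their measured values, though with earlier results of these data known. All 56 were found by gene identifier among the 58721 genes of the count table. All 56 also passed the filter on low counts. A549, the line used, is an established line from a human lung adenocarcinoma and was grown in DMEM with serum, and its polyadenylated RNA was sequenced. The WT group is 3 libraries from cells overexpressing wild-type KAT8, and the R98W group is 3 libraries from cells overexpressing KAT8 with the R98W substitution. By their labels both groups carry an introduced KAT8, and no library labelled as lacking it was used here. The labels give neither the promoter or vector of the introduced gene nor whether a group is a single clone. They also do not say whether replicates were separate cultures, so a p-value here covers the spread of these 6 libraries alone, and that spread may be technical. The comparison of R98W with WT asks whether transcripts of the remaining acetylation machinery differ between cells given the altered protein and cells given the wild-type one. In such bulk RNA, fewer cells of a type and less RNA per cell cannot be told apart.

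Lysine acetylation of histones is written by acetyltransferases, removed by HDACs and the NAD-dependent sirtuins, and read by bromodomains, YEATS domains and other folds. KAT8, or MOF, is the main acetyltransferase for a lysine in the tail of histone H4 and belongs to the same MYST family as KAT5, KAT6A, KAT6B and KAT7. Most of these enzymes work inside multi-subunit complexes, whose scaffold, reader and ATPase subunits direct them to chromatin, and several subunits are shared between complexes.

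Library totals ran from 90007121 to 110152936 counts. KAT8 stood at 12.2 CPM (counts scaled to the size of each library) in the library labelled WT replicate 1 and at 166 to 236 CPM in the other 5, so that library goes against its label, and values without it are given beside the results that rest on it. KAT8 was not called between R98W and WT (log2 fold change 0.61, standard error 0.48, edgeR adjusted p = 0.362), and without WT replicate 1 the log2 fold change was 0.06 (standard error 0.10, edgeR adjusted p = 0.687). All 8 genes taken as A549 markers, among them KRT8, AKR1B10 and ALDH1A1, were at 846 CPM or more in every library, and their summed level was 34464 to 35467 CPM in WT and 34114 to 37386 CPM in R98W. Within that sum AKR1B10 and TXNRD1 were called higher in R98W (log2 fold changes of 0.29 and 0.29, edgeR adjusted p of 0.000972 and 0.000823). ALDH1A1 was called lower (-0.20, edgeR adjusted p = 0.0154), and KRT7, KRT8, KRT18, NQO1 and AKR1C1 were not called. Of the blood markers CD3E was at 0 in every library and PTPRC stayed at or below 0.0611 CPM, while CD14 was at 7.22 to 8.23 CPM in WT and 6.01 to 8.62 CPM in R98W. The 3 endothelial markers summed to 0.392 to 0.779 CPM in WT and 0.214 to 0.362 CPM in R98W, so these low sums did not overlap between the groups, and their part in the results was not tested. The 3 fibroblast markers summed to 10.1 to 14.2 CPM in WT and 11.7 to 12.8 CPM in R98W, nearly all of it COL1A1, with COL1A2 at or below 0.0348 CPM.

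Of the 56 acetylation genes 8 were higher and 9 lower in R98W, and all 17 changes were smaller than 2-fold. Such sizes were common, since 7.75% of all tested genes had an absolute log2 fold change of at least 1. The largest falls were those of the TIP60 subunit DMAP1, the deacetylase HDAC11 and the histone reader ING4, and the rises were led by the scarce HDAC9, MORF4L2 and EPC1. A gene is called higher or lower where the edgeR quasi-likelihood test gave a Benjamini-Hochberg adjusted p under 0.05 over all tested genes. Over all 20713 tested genes 16.2% were called higher and 18.5% lower, together 34.8%, against 30.4% of the 56, which is near that background. A second background, chosen after the values were seen, was the protein-coding genes averaging 5 CPM or more, of which 47.3% were called (25.9% higher and 21.4% lower), against 16 of the 53 genes here at that level, or 30.2%. The median log2 fold change of the 56 was -0.06 and their median absolute log2 fold change 0.14, against medians of -0.0047 and 0.26 over all tested genes. An absolute log2 fold change of at least 0.5 was reached by 5 of the 56, or 8.93%, against 25.0% of all tested genes and 11.1% of the protein-coding genes of at least 5 CPM. The WT and R98W libraries did not overlap in 26 of the 56, or 46.4%, against 45.6% of all tested genes and 57.4% of the protein-coding genes of at least 5 CPM, and the 17 called genes were all among the 26.

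Which genes were called depended in part on single libraries. Without WT replicate 1 the counts were 5 higher and 9 lower, with 33.6% of all tested genes called, and 13 of the 17 stayed past the threshold in the same direction. The number of higher genes was 2 without WT replicate 3, 4 without R98W replicate 2 and 5 without R98W replicate 3, and the share of all tested genes called higher also fell in these fits, to 11.0%, 12.1% and 13.3%. A correction for expression level moved the split to 6 higher and 11 lower, with 31.8% of all tested genes called, and a correction for GC content moved it to 5 higher and 10 lower, with 36.2% called. DMAP1, HDAC11, ING4, TRRAP, ATAT1, HDAC8 and RUVBL1 among the falls, and MORF4L2 and EPC1 among the rises, were past the threshold in all 17 alternatives, whereas the other 8 lost the call in at least 1.

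**Figure D1:**
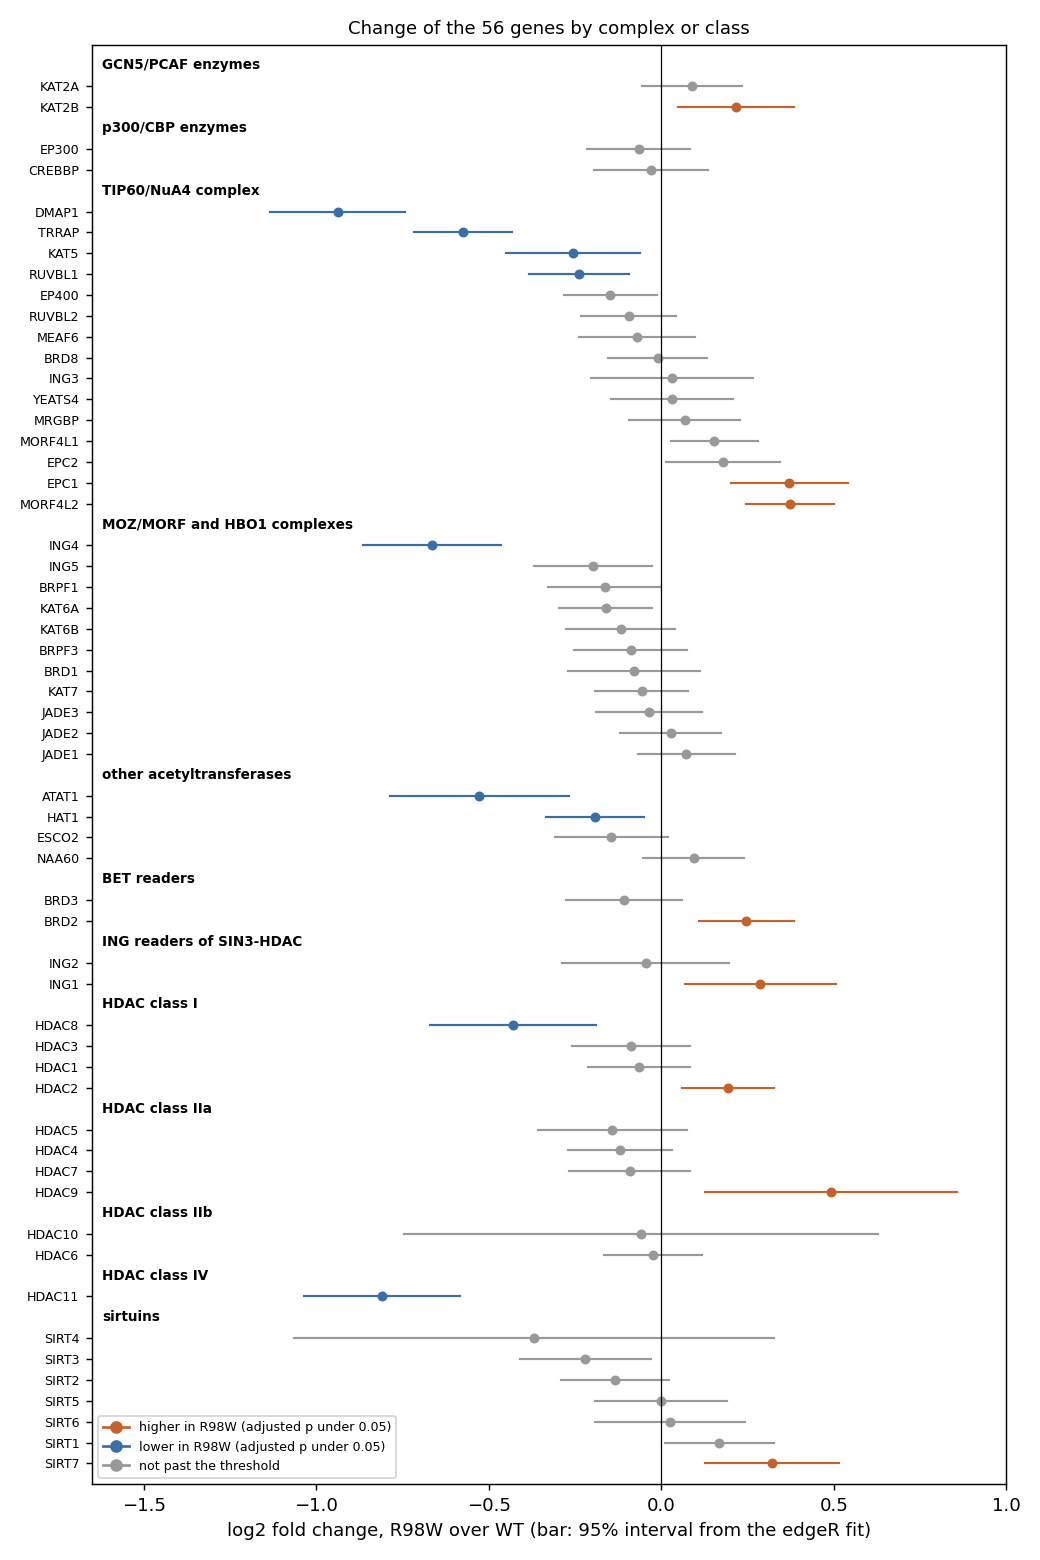
Log2 fold change of R98W over WT for each of the 56 genes, grouped by complex or class, with bars for the 95% interval from the edgeR fit. The 9 genes called lower are led by DMAP1 at -0.94 and HDAC11 at -0.81, the 8 called higher reach 0.49 at HDAC9, and most other genes lie close to 0.

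Promoter sequences are shown for the genes with the 3 largest falls and for the largest rise that kept its call and has a RefSeq entry, so that the letters upstream of genes moving in opposite directions can be read side by side. The RefSeq table of build GRCh38.p14 held 49 of the 56 genes, and the window is the 250 bases before the RefSeq start, 5′ to 3′ on the gene's strand. TRRAP and MORF4L2 are given by name only. The HDAC11 window lies inside the gene as GENCODE annotates it, whose start is further upstream. Capitals mark any match, on either strand, to GGGCGG (the GC box), CCAAT (the CCAAT box), CCGGAAG (an ETS core), the NRF1 core or CACGTG (an E-box).
DMAP1, chr1:44213221-44213470, plus strand: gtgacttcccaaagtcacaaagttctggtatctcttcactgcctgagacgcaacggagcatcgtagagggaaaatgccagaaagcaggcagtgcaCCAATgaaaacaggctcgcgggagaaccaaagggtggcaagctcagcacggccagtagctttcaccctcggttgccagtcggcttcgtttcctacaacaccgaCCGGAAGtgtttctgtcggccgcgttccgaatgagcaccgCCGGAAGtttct
HDAC11, chr3:13480056-13480305, plus strand: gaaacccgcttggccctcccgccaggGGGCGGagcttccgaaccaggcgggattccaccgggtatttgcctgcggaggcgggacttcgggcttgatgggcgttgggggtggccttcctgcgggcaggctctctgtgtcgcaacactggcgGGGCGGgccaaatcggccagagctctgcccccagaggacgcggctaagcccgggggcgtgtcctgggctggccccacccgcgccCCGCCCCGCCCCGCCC
ING4, chr12:6663120-6663369, minus strand: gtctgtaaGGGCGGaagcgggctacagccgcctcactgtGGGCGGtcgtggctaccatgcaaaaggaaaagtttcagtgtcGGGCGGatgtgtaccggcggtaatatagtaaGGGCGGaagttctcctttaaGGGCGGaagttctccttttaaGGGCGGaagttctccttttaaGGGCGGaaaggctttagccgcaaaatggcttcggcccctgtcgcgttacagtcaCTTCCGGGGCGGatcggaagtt
EPC1, chr10:32378770-32379019, minus strand, the first of 2 entries: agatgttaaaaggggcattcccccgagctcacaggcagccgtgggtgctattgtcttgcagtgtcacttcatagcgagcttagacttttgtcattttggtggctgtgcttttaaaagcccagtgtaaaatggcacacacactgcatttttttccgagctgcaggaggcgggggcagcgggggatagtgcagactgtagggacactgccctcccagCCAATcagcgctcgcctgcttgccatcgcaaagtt
The DMAP1 window held 2 ETS cores and 1 CCAAT box and no GC box, the HDAC11 window 5 GC boxes, and the EPC1 window 1 CCAAT box. ING4 held 8 GC boxes, 1 of which overlaps its single ETS core. Across the family a GC box was present in 31 of 49 windows (63.3%, against 42.6% of all 35116 windows of this length in the table) and an ETS core in 13 of 49 (26.5%, against 8.52%). The 49 windows were also richer in G and C, with a median of 66.4% against 58% over all windows. The part of this composition in the shares was not tested. Of the 8 lower genes with an entry, 4 held an ETS core, as did 1 of the 6 higher genes with an entry, numbers too small to compare. A CCAAT box was present in 26.5% of the 49 against 32.0% of all windows, an NRF1 core in 4.08% against 1.03% and an E-box in 4.08% against 6.34%. These are matches of letters and not sites of binding.

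The TIP60 complex, also called NuA4, held the largest fall, and of its 15 genes 4 were lower and 2 higher. Together these are 40.0%, against 34.8% of all tested genes. Complexes and classes hold few genes, and neither this count nor those below were tested against that share. DMAP1, a subunit of TIP60 and of the histone exchange complex SRCAP that also binds the DNA methyltransferase DNMT1, had 14.1, 15.3 and 15.03 CPM in WT replicates 1 to 3 and 7.71, 7.62 and 7.84 CPM in R98W replicates 1 to 3. All 3 R98W libraries were at about the same level, far below the lowest WT library. DMAP1 (ENSG00000178028, chromosome 1, 44213455 to 44220681, hg38) thereby fell by 0.94 on the log2 scale (standard error 0.09, edgeR adjusted p = 4.01e-07, and 7.30e-07 without WT replicate 1). TRRAP (ENSG00000196367, chromosome 7, 98877933 to 99050831), the large scaffold that TIP60 shares with the SAGA complex of KAT2A and KAT2B, had 123, 129 and 121 CPM in WT and 83.1, 89.0 and 78.2 CPM in R98W. Its groups were well apart, and it fell by 0.58 on the log2 scale (standard error 0.07, edgeR adjusted p = 2.91e-06, and 5.80e-06 without WT replicate 1). TRRAP shares 735 exon bases with SMURF1 on the opposite strand, which moved the other way with a log2 fold change of 0.21 (edgeR adjusted p = 0.0417). The sources used here do not give the strand setting of the counting, so reads of such pairs cannot be told apart.

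KAT5, the catalytic subunit TIP60 itself, was lower by a small margin. It had 14.0, 13.3 and 12.5 CPM in WT and 10.8, 11.8 and 10.8 CPM in R98W, with a gap of less than 1 CPM between the closest libraries of the groups. The log2 fold change was -0.25 (standard error 0.09, edgeR adjusted p = 0.0397), and it lost the call when WT replicate 1 or 2 was left out (0.0880 and 0.0578) or R98W replicate 1 or 3 (0.130 and 0.106). It also lost the call with no filter (0.0667) and after the corrections for expression level (0.161) and GC content (0.0920). KAT5 shares 1439 exon bases with RNASEH2C on the opposite strand, which had a log2 fold change of 0.25 (edgeR adjusted p = 0.0715). RUVBL1 (ENSG00000175792, chromosome 3, 128064778 to 128153914), one of a pair of AAA+ ATPases that assemble TIP60 and other complexes, had 88.2, 104 and 96.3 CPM in WT and 82.2, 81.1 and 81.4 CPM in R98W. Its WT libraries were spread over a wider range than the R98W libraries, which lay just below. RUVBL1 fell by 0.24 on the log2 scale (standard error 0.07, edgeR adjusted p = 0.0113, and 0.0017 without WT replicate 1), and its adjusted p ran from 0.0015 to 0.0494 over the alternatives. It shares 344 exon bases with SEC61A1 on the opposite strand, which rose by 0.23. RUVBL1 also shares 370 with EEFSEC on the opposite strand, which was not called (log2 fold change -0.13, edgeR adjusted p = 0.359). The partner ATPase RUVBL2 was at 138 ± 0.55 CPM in WT and 129 ± 8.7 CPM in R98W (SD, n = 3) and was not called (log2 fold change -0.09, edgeR adjusted p = 0.299).

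The 2 TIP60 genes that rose were EPC1 and MORF4L2, each a member of a pair of related genes. EPC1 (ENSG00000120616, chromosome 10, 32267751 to 32378798), an Enhancer of Polycomb scaffold that holds the catalytic module together, had 20.3, 19.3 and 20.5 CPM in WT and 24.1, 28.0 and 25.6 CPM in R98W. All R98W libraries were above all WT libraries, and EPC1 rose by 0.37 on the log2 scale (standard error 0.08, edgeR adjusted p = 0.0014, and 0.0034 without WT replicate 1). Its relative EPC2 was at 24.9 ± 1.7 CPM in WT and 28.1 ± 1.1 CPM in R98W, with groups that did not overlap, and did not pass the threshold (log2 fold change 0.18, edgeR adjusted p = 0.0860). MORF4L2 (ENSG00000123562, chromosome X, 103675496 to 103688158), an MRG domain protein, was the most abundant of the 15 per kilobase and had 381, 390 and 381 CPM in WT and 480, 504 and 508 CPM in R98W. It rose by 0.37 on the log2 scale (standard error 0.06, edgeR adjusted p = 9.73e-05, and 0.000373 without WT replicate 1). After the correction for expression level the log2 fold change of MORF4L2 was 0.19 (edgeR adjusted p = 0.0185). MORF4L1, its chromodomain-bearing relative MRG15, was at 422 ± 10.4 CPM in WT and 469 ± 5.3 CPM in R98W and stood just outside the threshold (log2 fold change 0.15, edgeR adjusted p = 0.0550). MORF4L1 was called higher in 5 of the 17 alternatives, DESeq2 and limma-voom among them.

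The other TIP60 subunits were not called. EP400, the ATPase that exchanges the histone variant H2A.Z, was at 105 ± 4.8 CPM in WT and 94.3 ± 2.0 CPM in R98W (log2 fold change -0.15, edgeR adjusted p = 0.0838), with groups that did not overlap. It was called lower with the filter of at least 50 counts, after the correction for expression level and without WT replicate 2. The bromodomain subunit BRD8, the YEATS domain reader YEATS4, the PHD finger protein ING3, MRGBP and MEAF6, a small subunit shared with the MOZ, MORF and HBO1 complexes, had log2 fold changes from -0.07 to 0.07. The 95% intervals of these 5 genes reached from -0.24 to 0.27 at the widest, and changes inside those limits could not be told from none.

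**Figure D2:**
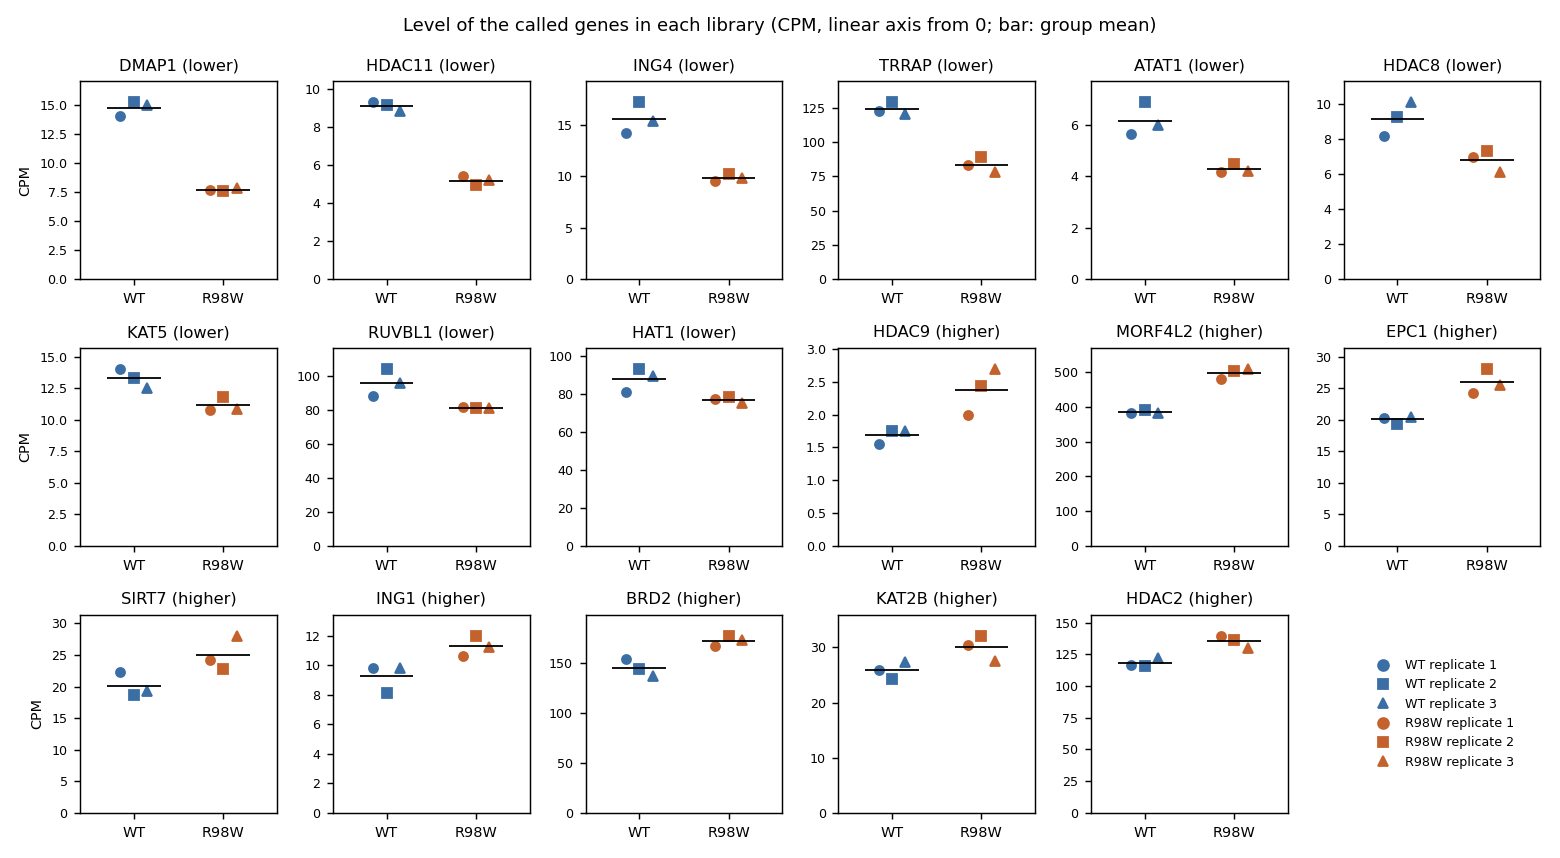
CPM in each library for the 17 called genes, on linear axes from 0, with a bar at each group mean. In every panel the 3 R98W libraries lie entirely above or entirely below the 3 WT libraries, with wide gaps for DMAP1, HDAC11 and TRRAP and narrow ones for KAT5, KAT2B and ING1. Groups were also apart in 6889 of the 7203 called genes of the whole table.

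In the MOZ, MORF and HBO1 complexes 1 of 11 genes was called, or 9.09%, against 34.8% of all tested genes. The called gene was a reader and not an enzyme. ING4, a PHD finger protein that binds methylated histone H3 and belongs to HBO1 complexes, had 14.2, 17.2 and 15.4 CPM in WT and 9.53, 10.2 and 9.84 CPM in R98W. The lowest WT library was still well above the highest R98W library. ING4 (ENSG00000111653, chromosome 12, 6650280 to 6663148) fell by 0.66 on the log2 scale (standard error 0.10, edgeR adjusted p = 2.77e-05, and 1.49e-05 without WT replicate 1). Its relative ING5, shared by all 3 complexes, was at 19.2 ± 0.19 CPM in WT and 16.7 ± 0.84 CPM in R98W and was not called (log2 fold change -0.20, edgeR adjusted p = 0.0675). Among the enzymes, KAT6A had a log2 fold change of -0.16 (edgeR adjusted p = 0.0569) with groups that did not overlap, KAT6B -0.12 (0.245) and KAT7 -0.06 (0.539). KAT6A was called lower in 5 of the 17 alternatives, both the expression-level and the GC correction among them. The scaffolds BRPF1, BRPF3 and BRD1, which bind MOZ, MORF or HBO1, had log2 fold changes from -0.16 to -0.08, and the HBO1 scaffolds JADE1, JADE2 and JADE3 from -0.04 to 0.07, with none called.

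Of the 2 coactivators EP300 and CREBBP 0 were called, and of the 2 SAGA enzymes KAT2A and KAT2B 1 was called, KAT2B. Of all tested genes 34.8% were called. EP300 had 114, 99.1 and 104 CPM in WT and 103, 106 and 94.3 CPM in R98W, so its groups overlapped. The log2 fold change of EP300 was -0.07 (95% interval -0.21 to 0.08, edgeR adjusted p = 0.523) and that of its relative CREBBP -0.03 (95% interval -0.19 to 0.14, edgeR adjusted p = 0.810). Without WT replicate 1 the log2 fold change of EP300 was -0.02 and that of CREBBP turned to 0.06. KAT2B, or PCAF, had 25.9, 24.3 and 27.3 CPM in WT and 30.4, 32.0 and 27.6 CPM in R98W, where WT replicate 3 and R98W replicate 3 nearly met. KAT2B was called higher with a log2 fold change of 0.22 (standard error 0.08, edgeR adjusted p = 0.0431), but the call ended without each library except R98W replicate 3. Without WT replicates 1, 2 and 3 in turn its edgeR adjusted p was 0.0797, 0.160 and 0.0594, and without R98W replicates 1 and 2 it was 0.113 and 0.199. Upper quartile scaling, no filter, the filter of at least 50 counts and the correction for GC content also ended it, at 0.0558, 0.0519, 0.0507 and 0.0537. KAT2A, or GCN5, was at 53.8 ± 2.5 CPM in WT and 57.2 ± 3.2 CPM in R98W and was not called (log2 fold change 0.09, edgeR adjusted p = 0.350).

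Of the 4 acetyltransferases that act mainly on other substrates or on free histones, 2 were lower, against 18.5% of all tested genes. ATAT1 (ENSG00000137343, chromosome 6, 30626842 to 30646823), which acetylates alpha-tubulin inside microtubules, had 5.64, 6.89 and 5.99 CPM in WT and 4.16, 4.49 and 4.21 CPM in R98W. The groups were apart by more than 1 CPM, and ATAT1 fell by 0.53 on the log2 scale (standard error 0.12, edgeR adjusted p = 0.0025, and 0.0015 without WT replicate 1). HAT1, which acetylates newly made histone H4 before its deposition, had 81.1, 93.1 and 89.3 CPM in WT and 77.2, 78.5 and 75.0 CPM in R98W, with WT replicate 1 close to the R98W libraries. HAT1 was called lower with a log2 fold change of -0.19 (standard error 0.07, edgeR adjusted p = 0.0352). Its edgeR adjusted p was 0.0064 without WT replicate 1, but 0.0864 and 0.1005 without WT replicates 2 and 3, and 0.0966, 0.0768 and 0.108 without R98W replicates 1, 2 and 3. ESCO2, which acetylates the cohesin subunit SMC3 in S phase, had -0.14 (edgeR adjusted p = 0.168), and NAA60, an N-terminal acetyltransferase of the Golgi, had 0.09 (0.332).

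Among the readers, 1 of 2 BET genes (BRD2) and 1 of 2 ING readers of SIN3-HDAC (ING1) were called higher, against 16.2% of all tested genes. Their closest relatives were not called. BRD2, a BET protein whose tandem bromodomains bind acetylated histone H4, had 155, 144 and 138 CPM in WT and 167, 178 and 173 CPM in R98W. Every R98W library was above every WT library, and BRD2 had a log2 fold change of 0.25 (standard error 0.07, edgeR adjusted p = 0.0065, and 0.0031 without WT replicate 1). The call ended without WT replicate 3 (edgeR adjusted p = 0.0627), and after the correction for expression level the log2 fold change was 0.11 (edgeR adjusted p = 0.194). BRD2 shares 55 exon bases with HLA-DMA on the opposite strand, which fell by 0.71 on the log2 scale. BRD3 was at 54.2 ± 6.7 CPM in WT and 50.3 ± 0.54 CPM in R98W, with a log2 fold change of -0.11 (edgeR adjusted p = 0.335). It shares 1281 exon bases with BRD3OS on the opposite strand, which fell by 0.39 on the log2 scale. ING1, a PHD finger subunit of the SIN3-HDAC complex, had 9.83, 8.15 and 9.83 CPM in WT and 10.6, 11.99 and 11.3 CPM in R98W. Its log2 fold change was 0.29 (standard error 0.10, edgeR adjusted p = 0.0391, and 0.0348 without WT replicate 1). Every R98W library was above every WT library. ING1 shares 326 exon bases with CARS2 on the opposite strand, which was at a mean of 30.9 CPM in WT and 32.6 CPM in R98W. CARS2 was not called (log2 fold change 0.08, edgeR adjusted p = 0.475). The ING1 call ended without WT replicate 2 or 3 (0.189 and 0.0607) and without R98W replicate 2 or 3 (0.147 and 0.0790). ING2, its relative in the same complex, was at 8.24 ± 0.69 CPM in WT and 7.98 ± 0.99 CPM in R98W (log2 fold change -0.04, edgeR adjusted p = 0.803).

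Of the 11 HDACs 2 were lower and 2 higher, together 36.4%, against 34.8% of all tested genes. HDAC11, the single class IV enzyme, known for removing long fatty acyl groups from lysine, had 9.30, 9.13 and 8.82 CPM in WT and 5.41, 4.93 and 5.20 CPM in R98W. The libraries within each group agreed closely, and the groups were far apart. HDAC11 (ENSG00000163517, chromosome 3, 13479724 to 13506424) fell by 0.81 on the log2 scale (standard error 0.11, edgeR adjusted p = 1.15e-05, and 3.91e-05 without WT replicate 1). HDAC8 (ENSG00000147099, chromosome X, 72329516 to 72573199), a class I enzyme that deacetylates the cohesin subunit SMC3, had 8.18, 9.26 and 10.1 CPM in WT and 7.01, 7.36 and 6.11 CPM in R98W. WT replicate 1 was the WT library nearest to R98W, and HDAC8 fell by 0.43 on the log2 scale (standard error 0.12, edgeR adjusted p = 0.0068, and 0.0022 without WT replicate 1). Over the alternatives its adjusted p reached 0.0499, just inside the threshold.

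HDAC2, the class I partner of HDAC1 in the SIN3, NuRD and CoREST complexes, had 117, 116 and 122 CPM in WT and 139, 136 and 130 CPM in R98W. The R98W libraries were all higher, by a small step, with a log2 fold change of 0.19 (standard error 0.06, edgeR adjusted p = 0.0230). The HDAC2 call ended without WT replicate 1 or 3 (0.0555 and 0.0503), without R98W replicate 1 or 2 (0.104 and 0.0818), and after the corrections for expression level and GC content, where the log2 fold changes were 0.07 and 0.10 (0.410 and 0.169). HDAC1 and HDAC3 were not called, with log2 fold changes of -0.06 and -0.09 (edgeR adjusted p of 0.534 and 0.446). HDAC9, a class IIa enzyme, was scarce, with 1.55, 1.76 and 1.75 CPM in WT and 1.99, 2.43 and 2.69 CPM in R98W. R98W replicate 1 was the lowest of its group and closest to WT. The HDAC9 log2 fold change of 0.49 had the widest error of the called genes (standard error 0.17, edgeR adjusted p = 0.0342), and the call ended without any 1 of WT replicates 1, 2 and 3 (0.0948, 0.0523 and 0.0746) or R98W replicates 2 and 3 (0.0876 and 0.146), with no filter (0.0516) and after the correction for GC content (0.0690). The other class IIa genes, HDAC4, HDAC5 and HDAC7, had log2 fold changes from -0.14 to -0.09 with none called, and HDAC4 was the 1 of these whose groups did not overlap. HDAC6, a cytoplasmic class IIb enzyme that deacetylates the tubulin which ATAT1 acetylates, had 49.1, 51.6 and 48.6 CPM in WT and 51.3, 47.4 and 48.1 CPM in R98W, and its groups overlapped. The HDAC6 log2 fold change was -0.02 (95% interval -0.17 to 0.12, edgeR adjusted p = 0.827). HDAC10 was at 0.593 ± 0.23 CPM in WT and 0.567 ± 0.17 CPM in R98W, and its 95% interval of -0.75 to 0.63 is too wide to tell a change. Of its 4.951 kilobases of exon, 2763 bases are shared with MAPK12 on the same strand.

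Of the 7 sirtuins 1 was called, or 14.3%, against 34.8% of all tested genes. SIRT7, a nucleolar deacetylase of histone H3, had 22.2, 18.6 and 19.2 CPM in WT and 24.2, 22.8 and 28.0 CPM in R98W. WT replicate 1 came within 1 CPM of R98W replicate 2. The log2 fold change of SIRT7 was 0.32 (standard error 0.09, edgeR adjusted p = 0.0106, and 0.0040 without WT replicate 1), and it lost the call when WT replicate 3 (0.0689) or R98W replicate 3 (0.0791) was left out. SIRT7 shares 105 exon bases with MAFG on its own strand, which had a log2 fold change of 0.18 (edgeR adjusted p = 0.0738). SIRT1 and SIRT2, the sirtuins best known for deacetylating the histone H4 lysine that KAT8 acetylates, had log2 fold changes of opposite sign that did not pass the threshold. SIRT1 was at 45.4 ± 3.6 CPM in WT and 51.0 ± 3.2 CPM in R98W (log2 fold change 0.17, edgeR adjusted p = 0.0924), and SIRT2 at 28.95 ± 0.85 CPM and 26.4 ± 1.1 CPM (-0.13, 0.180), with groups that did not overlap in either gene. The mitochondrial SIRT3 had -0.22 (edgeR adjusted p = 0.0694), with groups that did overlap, and was called lower without WT replicate 1 and with the filter of at least 50 counts. SIRT3 shares 316 exon bases with PSMD13 on the opposite strand, which was at 118 CPM in WT and 119 CPM in R98W and was not called. SIRT5, the desuccinylase of mitochondria, and SIRT6, a chromatin-bound deacetylase, had -0.00065 and 0.03. SIRT4 was at 0.755 ± 0.27 CPM in WT, too low for a narrow interval (-1.06 to 0.33).

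**Figure D3:**
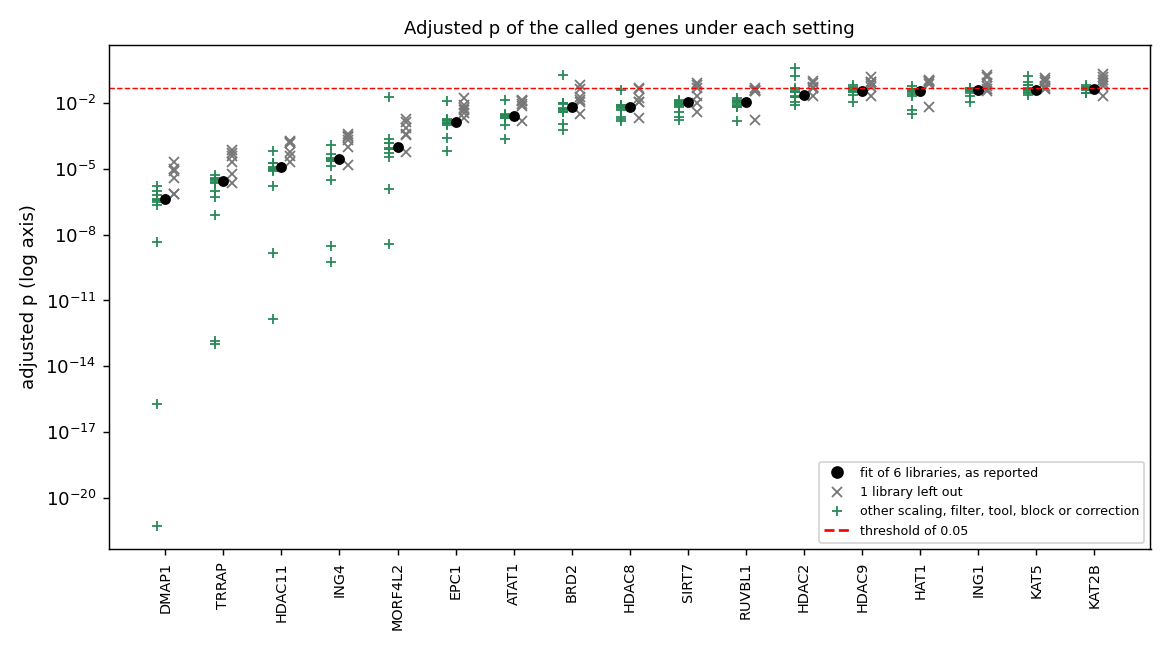
Adjusted p on a log axis for the 17 called genes, with the fit of 6 libraries as dots, fits without 1 library as crosses and other settings as plus signs. The points of DMAP1, TRRAP, HDAC11, ING4, MORF4L2, EPC1, ATAT1, HDAC8 and RUVBL1 all lie under the dashed threshold of 0.05, whereas those of the other 8 cross it.

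Closely related genes were next compared within each library, as the log2 ratio of their levels per kilobase of exon, for 13 pairs. With 3 against 3 libraries the two-sided exact permutation test cannot go below p = 0.10, and after adjustment over the 13 pairs 0 passed the threshold, the smallest adjusted p being 0.217. In 6 pairs the groups did not overlap, each with an exact p of 0.10. The largest shift was that of ING4 over ING5, whose log2 ratio was 1.47, 1.77 and 1.58 in WT and 1.16, 1.21 and 1.07 in R98W, a change of -0.46. ING4 stayed above ING5 per kilobase in every library, but in CPM ING5 was the higher in every library. Mean CPM of ING4 and ING5 was 15.6 and 19.2 in WT and 9.86 and 16.7 in R98W. The order of the pair therefore rests on the exon lengths, 2.736 kilobases for ING4 and 10.259 for ING5. The ratio of BRD2 over BRD3 was 1.31, 1.54 and 1.16 in WT and 1.63, 1.71 and 1.71 in R98W, a change of 0.35. SIRT6 over SIRT7 went from 0.05, 0.00 and 0.15 in WT to -0.20, -0.09 and -0.37 in R98W. Per kilobase SIRT7 was thus the higher of the pair in all R98W libraries, while WT replicate 2 had the pair level. In CPM SIRT7 was the higher in every library of both groups. The order of SIRT6 and SIRT7 per kilobase therefore also rests on their exon lengths, and only the shift of the ratio differs between the groups. HDAC1 over HDAC2 changed by -0.26, MORF4L1 over MORF4L2 by -0.22 and EPC1 over EPC2 by 0.19. In the pairs EP300 over CREBBP, KAT6A over KAT6B, HDAC4 over HDAC5, BRPF1 over BRPF3, KAT2A over KAT2B, RUVBL1 over RUVBL2 and HDAC6 over HDAC10 the groups overlapped, with changes between -0.14 and 0.02. These small changes depended on single libraries: HDAC6 over HDAC10 ran from -0.29 without WT replicate 1 to 0.25 without R98W replicate 3, and KAT2A over KAT2B from -0.06 without R98W replicate 2 to -0.23 without R98W replicate 3. Without WT replicate 1 the 6 pairs whose groups did not overlap changed by -0.53 for ING4 over ING5, 0.33 for BRD2 over BRD3, -0.30 for SIRT6 over SIRT7, -0.30 for HDAC1 over HDAC2, -0.22 for MORF4L1 over MORF4L2 and 0.16 for EPC1 over EPC2.

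**Figure D4:**
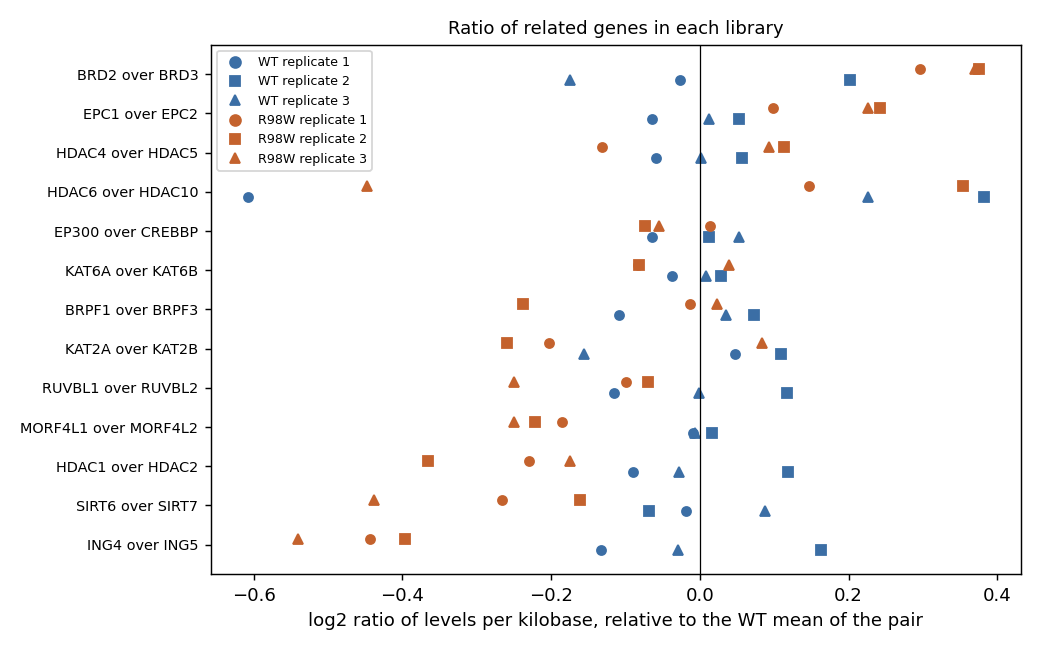
Log2 ratio of levels per kilobase for 13 pairs of related genes in each library, drawn relative to the WT mean of the pair. In 6 pairs the R98W libraries do not overlap the WT libraries, from ING4 over ING5 at -0.46 to BRD2 over BRD3 at 0.35.

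The levels per kilobase show which members of each family these cells express. They use the summed exon length of all annotated transcripts, so genes with long alternative exons are understated. Among the acetyltransferases, WT means ran from 14.3 ± 0.65 CPM per kilobase for KAT2A and 12.9 ± 0.90 for HAT1, whose libraries overlapped, down to 1.18 ± 0.05 for KAT6B (SD, n = 3). KAT5, at 3.56 ± 0.20 CPM per kilobase, stood below KAT7 at 6.40 ± 0.17 and overlapped KAT6A at 3.66 ± 0.10. HDAC1 led the HDACs at 23.3 ± 1.6 CPM per kilobase, followed by HDAC3 at 8.66 ± 1.0 and HDAC2 at 7.65 ± 0.21, which overlapped, while HDAC9 and HDAC10 were at 0.1001 ± 0.0071 and 0.120 ± 0.046. In CPM HDAC2 was above HDAC1 in every library, with means of 118 and 92.2 in WT and 135 and 88.3 in R98W. The lead of HDAC1 over HDAC2 per kilobase therefore rests on their exon lengths, 3.963 and 15.461 kilobases. HDAC11 ranked 7 of 11 in WT at 1.72 ± 0.05 CPM per kilobase and 8 of 11 in R98W at 0.981 ± 0.046. SIRT1 led the sirtuins at 9.98 ± 0.79 CPM per kilobase in WT, above SIRT2 at 4.65 ± 0.14, and SIRT3, SIRT6 and SIRT7 could not be ordered beyond their spread. In the TIP60 complex levels ran from 145 ± 2.1 CPM per kilobase for MORF4L2 to 1.36 ± 0.11 for ING3. In mean CPM MORF4L1 was above MORF4L2 in WT (422 and 384) and below it in R98W (469 and 498). DMAP1 moved from place 13 of 15 in WT, at 2.64 ± 0.11 CPM per kilobase, to the lowest place in R98W, at 1.38 ± 0.02, where ING3 at 1.39 ± 0.09 was not separated from it. Leaving out WT replicate 1 changed the WT levels of the 53 genes of at least 5 CPM by ratios of 0.935 to 1.05, and exchanged the places of CREBBP with NAA60, HDAC9 with HDAC10 and BRD3 with JADE3.

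**Figure D5:**
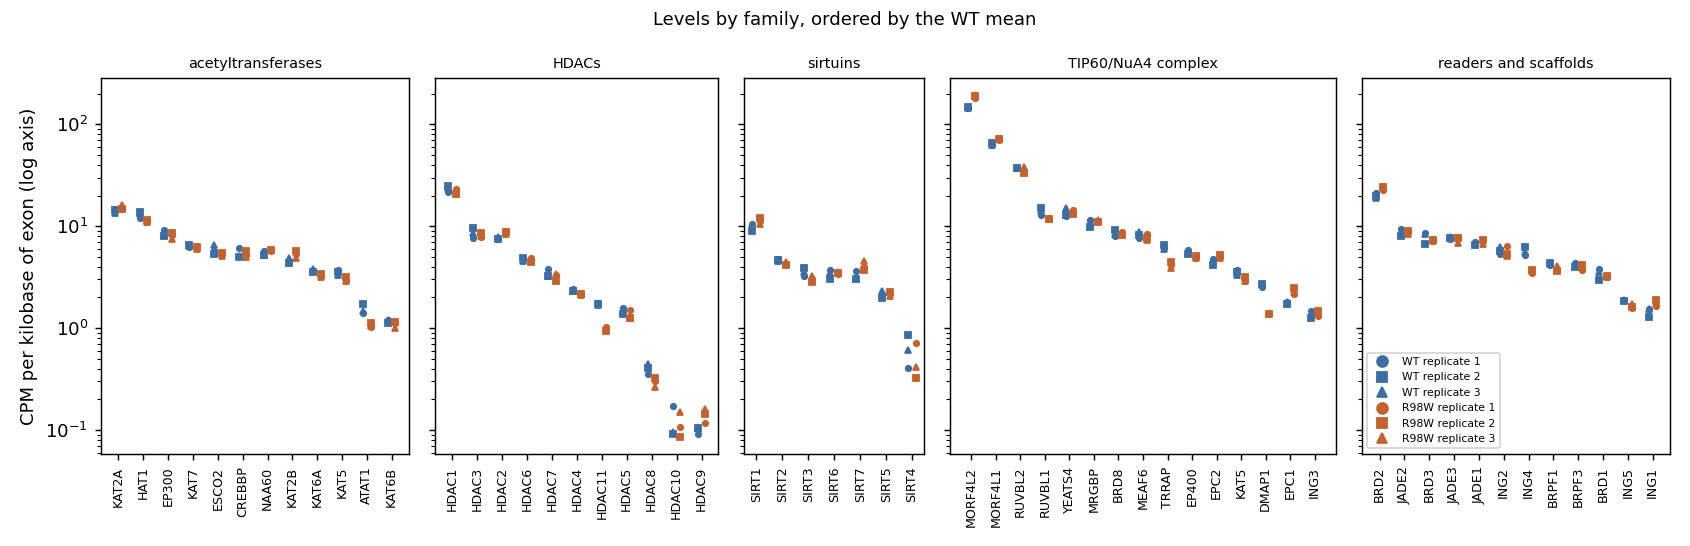
CPM per kilobase of exon on a log axis for each gene in each library, by family and in the order of the WT mean. The widest gaps between WT and R98W points of called genes are those of DMAP1, HDAC11 and ING4, at log2 fold changes of -0.94, -0.81 and -0.66.

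Another 98 genes of the same machinery gave a like share of calls. Their lists were written by family and not by their values, though with earlier results of these data known. Of the 97 that were tested 15 were higher and 15 lower, or 30.9%, against 34.8% of all tested genes, with a median log2 fold change of 0.04. Partners of KAT2A and KAT2B in the SAGA and ATAC complexes were lower in 4 of 19 cases (TADA3, SUPT7L, MBIP and KAT14) and higher in 0. These 4 are 21.1% of the 19, near the 18.5% of all tested genes called lower, while 16.2% of all were called higher. The median of the 19 was 0.05 on the log2 scale. Among 29 corepressor partners of the class I HDACs, 6 rose and 3 fell. Of 30 further bromodomain, PHD and YEATS proteins 3 rose and 6 fell, with the largest falls in SP110 and DPF1, at log2 fold changes of -1.58 and -1.47. Among 12 further acetyltransferases 3 rose and 2 fell. Of 7 genes that supply acetyl-CoA 3 rose and 0 fell, led by the mitochondrial synthetase ACSS1 at 0.63 on the log2 scale. In the corepressor, reader, acetyltransferase and acetyl-CoA groups 31.0%, 30.0%, 41.7% and 42.9% were called, against 34.8% of all tested genes. These groups are small, and none was tested against that share. Without WT replicate 1 the 98 genes together gave 20 higher and 15 lower, with 33.6% of all tested genes called. The 15 higher genes became 9 without R98W replicate 1, 9 without R98W replicate 2 and 9 after the correction for expression level, which also gave 23 lower, and 17 or 18 without R98W replicate 3 and after the corrections for GC content and exon length. Over all tested genes 3364 were higher in the reported fit. That number was 2666, 2602 and 2954 in the first 3 of these fits and 2843, 3440 and 3348 in the last 3.

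With its low KAT8, the library labelled WT replicate 1 was on the R98W side of the WT replicate 2 and 3 mean in 12 of the 17 called genes, or 70.6%. Over all called genes of the table that share was 72.0%. Without that library DMAP1 had a log2 fold change of -0.98, TRRAP -0.59, ING4 -0.74, HDAC11 -0.80 and EPC1 0.37, all close to the values with it. KAT2B, KAT5, HDAC2 and HDAC9 lost the call without it, as given above. The part of the low KAT8 library in these differences was not tested.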

How the data were processed

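Polyadenylated RNA was sequenced from 6 libraries of A549 cells. The authors deposited unnormalized counts of reads for each gene, with 1 column per library. CASAVA 1.8, HISAT2 2.1.0, HTSeq 0.11.3 and build hg38 are named, without roles, per the submitters' processing notes. Not given in the sources used here: annotation, strand setting and read filters. All 58721 rows matched GENCODE release 29 by identifier, which gave symbols, positions and exon lengths.

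Counts were fitted over all genes with edgeR 4.0.16 in R 4.3.3: filterByExpr with a minimum count of 10 and a minimum total of 15, TMM scaling, and the quasi-likelihood test of R98W against WT over all 6 libraries without covariates, with Benjamini-Hochberg adjustment over 20713 genes and a threshold of 0.05. SE is the log2 fold change over the root of the test statistic, and CPM uses TMM-scaled totals. Values in every library are given for called genes (up to the 12 largest in each direction) and for the gene of smallest p in each complex or class. The genes, lists and tests were chosen with earlier results of these data known. Alternatives were DESeq2 1.42.0, limma-voom (limma 3.58.1), 2 other scalings, 2 other filters, KAT8 left out, a replicate block, each library left out and a loess correction for expression level. Corrections for GC content and exon length were added after seeing the data. The pipeline was tested on simulated data. One of the blood markers is not reported here.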

Additional observations from a re-analysis of the deposited data

How the results depend on the processing

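The number of genes called higher, 8 in the reported fit, was 5 after the correction for GC content, 2 to 6 over the fits without 1 library and 5 to 9 over the other alternatives. The number called lower, 9, ran from 7 to 11 without 1 library and from 7 to 13 otherwise. Over all tested genes, fits without 1 library called 2340 to 3268 higher and 3060 to 3944 lower. The reported fit called 3364 and 3839. Counts for the other 98 acetylation genes were 9 higher and 23 lower after the correction for expression level, and 9 to 20 higher without 1 library. KAT8 passed the threshold with no filter (log2 fold change 0.61, edgeR adjusted p = 6.72e-16) and with a replicate block (1.22, edgeR adjusted p = 0.000788), and the cause was not tested. HDAC6, not called in any fit, turned from -0.02 to 0.0399 after the correction for GC content, and ran from -0.0564 to 0.00022 without 1 library, turning without R98W replicate 2. Of the 17 called genes 9 kept the call in every alternative, and none of the 17 turned its direction. Replicate numbers did not pair the libraries: the correlations of same-numbered libraries were -0.03, -0.12 and -0.16, and no library correlated best with its own number. With a replicate block 7 genes were higher and 7 lower, and HAT1, KAT2B and KAT5 lost the call. Over all 20713 tested genes the block fit called 3205 higher and 3678 lower. HDAC9, HDAC10 and SIRT4 lay under 5 CPM, where depth limits what can be called.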
